A study of Sus scrofa with 45 samples.

Results

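The comparison described here is that of added sucrose in white blood cells after 27 weeks of diet. It sets the 4 arrays titled as white blood cells of pigs on the high-fat, high-cholesterol, high-sucrose diet (HFCSD) against the 4 of pigs on the high-fat, high-cholesterol diet (HFCD), chosen by their titles alone. These are 8 of the 45 arrays in the series. The study fed male miniature pigs from 12 weeks of age and measured gene expression in blood with 1-colour Agilent porcine arrays. Both diets held 15% lard and 2% cholesterol, and HFCSD alone held 37% sucrose. White blood cells were also taken from 4 pigs on the control diet at 27 weeks. Whole blood arrays of 27 weeks cover 3 HFCD, 3 HFCSD and 4 control samples. White blood cell RNA came from a leukocyte filter kit and whole blood RNA from preservation tubes, so sample type and preparation cannot be told apart. The labels do not tie the white blood cell and whole blood arrays to the same pig.

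Sucrose is split in the gut into glucose and fructose, and the liver takes up most of the fructose and turns part of it into triglyceride. Circulating leukocytes burn mainly glucose, and they read cholesterol through the liver X receptors, which switch on the efflux pump ABCA1, and through the sterol-sensing SREBP factors, which switch on cholesterol synthesis. Blood leukocyte preparations hold neutrophils, monocytes and lymphocytes, and may carry platelets and young red cells with them.

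All values below are log2 signal, quantile normalized over the 45 arrays, and differences are HFCSD minus HFCD unless stated. The values of a group are given in the order of its arrays, 1 to 4. A probe was tested when the scanner software called it well above background on every array of HFCD or of HFCSD, which kept 18798 of 43603 probes, 2390 of them with a gene name (1709 genes). Of the spots, 47.1%, 45.9%, 43.4% and 44.1% were well above background on the HFCD arrays and 48.6%, 48.1%, 47.6% and 46.1% on the HFCSD arrays. The means differed by 2.47 percentage points, with a two-sided exact permutation p of 0.0571. The number of arrays limits the precision: the median standard error of a probe's difference was 0.27.

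The markers of the labelled cells were present on every array. CD3D of T cells averaged 12.16 on HFCD and 12.34 on HFCSD arrays, LYZ of monocytes 14.05 and 13.69, MMP9 of neutrophils 14.15 and 13.47, and NKL of cytotoxic lymphocytes 14.94 and 14.84. Platelet transcripts were present too. PF4, a chemokine that platelets store, read 13.99, 9.17, 12.94 and 13.93 on HFCD and 13.86, 14.23, 12.69 and 11.96 on HFCSD arrays.

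HFCD array 2 stood apart before any comparison of diets. It correlated with the rest of its diet at a mean of 0.941, and HFCD arrays 1, 3 and 4 at 0.970, 0.967 and 0.961. The 8 tested platelet probes averaged 11.26, 6.63, 10.57 and 12.06 on the HFCD arrays, 12.07, 11.58, 9.77 and 9.55 on the HFCSD arrays, and 7.67, 12.25, 12.32 and 12.67 on the control arrays. HFCD array 2 and control array 1 thus carried little platelet signal, and HFCSD arrays 3 and 4 lay between them and the rest. The embryonic-type globin HBE1 was low on the same 2 arrays, with 8.11 on control array 1, and read 13.23, 8.06, 12.48 and 13.91 against 13.82, 13.08, 11.10 and 11.98 on its brighter probe. In bulk samples fewer cells of a type and less RNA per cell cannot be told apart. Because of this array, many group results are given with and without it, a choice made after seeing the data.

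With limma and adjustment over all 18798 probes, 0 probes (0%) passed the test between the diets, and the smallest adjusted p was 1 after rounding. Without adjustment limma put 408 probes (2.17%) under 0.05, 234 of them higher in HFCSD (1.24%) and 174 lower (0.926%). Adding an adjustment to the t-test of the study's methods also gave 0 probes, and without it that test gave 440. The study's cutoffs, that test unadjusted with at least a doubling or halving of the signal, took 11 probes higher (0.0585%) and 11 lower (0.0585%) in HFCSD among the probes tested here. The study lists genes by these cutoffs for each diet against control, so their use between the diets is not the study's own. The filter on dim probes differs from the one the study describes. These counts were 57 and 51 with a weaker presence flag and 1 and 3 with the offset background correction described below. The diets did not overlap for 260 probes (1.38%), with HFCSD above for 163 (0.867%) and below for 97 (0.516%). Without HFCD array 2 the criterion took 50 probes higher and 18 lower, and limma put 0 past adjustment with 764 under 0.05 unadjusted. Without HFCSD array 2 the criterion took 135 higher and 26 lower, and without HFCSD array 1 or 4 it took 7 and 5. Leaving out HFCSD array 3 gave 19 and 20, HFCD array 1 gave 27 higher, HFCD array 3 gave 6 lower and HFCD array 4 gave 20 lower. The count of 408 depended on single arrays as well: it was 1022 without HFCSD array 2, 242 without HFCSD array 4 and 148 without HFCSD array 1. The median difference was -0.00, and the quartiles were -0.16 and 0.17. Only 239 probes (1.27%) differed by more than 1 on the log2 scale.

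The correlation of log2 signal averaged 0.967 over the 16 pairs across diets, 0.960 over the 6 pairs within HFCD and 0.969 over the 6 pairs within HFCSD, each taken over probes well above background on both arrays. The mean across diets minus that within diets was 0.0028, with a two-sided exact permutation p of 0.486 over 70 splits. It was 0.000195 without HFCD array 2, 0.000189 without HFCD array 4, 0.00144 without HFCSD array 2, and 0.00684 and 0.00597 without HFCSD arrays 1 and 4, with p of 0.171 to 1 over 35 splits.

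No gene passed the test, so the genes below are described by their values. They are those with a name whose unadjusted limma p was under 0.05 and whose arrays did not overlap between the diets, 7 probes higher in HFCSD and 9 lower. That choice fixes their direction and the gap between the groups. All 16 had the same sign in every other setting of the processing run for them, 23 or 24 per probe.

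Of the higher genes F2R had the largest difference in means, though most of its HFCD values were near background. It is the thrombin receptor found on platelets and the vessel lining. F2R read 6.37, 3.48, 3.76 and 3.1 on HFCD arrays and 7.14, 6.98, 7.55 and 6.73 on HFCSD arrays. All 4 HFCSD arrays were high, while among the HFCD arrays only array 1 came near them and only array 1 was well above background. The means were 4.18 (SD 1.49) and 7.10 (SD 0.34), a difference of 2.93 (SE 0.85). Since F2R was tested through HFCSD and 3 of the 4 HFCD values were not well above background, the size of that difference cannot be read with precision. The control arrays read 2.60, 6.27, 6.41 and 5.94, with array 1 below all HFCD arrays. Within the 3 slides, each of which held both diets, the differences were 3.22, 2.82 and 3.46, and a fit with slide as a block gave 3.09. With a model-based background correction that adds an offset to dim signals, the difference was 1.19. On the 2 arrays with the least platelet signal, HFCD array 2 and control array 1, F2R read 3.48 and 2.60. HFCD arrays 3 and 4, with platelet means of 10.57 and 12.06, read 3.76 and 3.1, and HFCSD arrays 3 and 4, with 9.77 and 9.55, read 7.55 and 6.73. The part of platelet RNA in the F2R values was not tested. In whole blood F2R read 6.85, 2.99 and 2.24 on HFCD and 6.52, 7.90 and 6.63 on HFCSD arrays, and there too 1 HFCD array was among the high ones.

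SERPINB9, which shields lymphocytes from their own granzyme B, read 7.06, 3.83, 6.99 and 6.44 on HFCD and 7.55, 7.10, 7.18 and 7.73 on HFCSD arrays. HFCD array 2 lay far below all others, and the control arrays read 6.77, 6.55, 6.83 and 6.59. The difference was 1.31 (SE 0.56) with that array and 0.56 without it, 0.71 with the offset background correction, and within slides 0.11, 0.43 and 3.81. SMC6, a subunit of a chromosome maintenance complex, read 6.07, 6.05, 5.75 and 6.10 against 6.92, 6.35, 6.66 and 6.56. These groups were tight and close, with a difference of 0.63 (SE 0.22), slide values of 0.59, 0.57 and 0.69, and 0.34 with the offset correction. The other 4 probes higher in HFCSD were LMO3 at 1.04, KCNS3 at 0.63, PHACTR3 at 0.54 and CETN3, a centrosome protein, at 0.45. LMO3 and KCNS3 were well above background on 1 HFCD array each, so the size of their differences cannot be read with precision. With the offset correction LMO3 was 0.15, KCNS3 0.14 and PHACTR3 0.26, and LMO3 was 0.56 without HFCD array 4.

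Among the lower genes the largest gap was that of CCL8, a chemokine that draws monocytes. CCL8 read 7.86, 9.87, 8.83 and 7.65 on HFCD and 6.89, 7.34, 6.94 and 7.01 on HFCSD arrays. The HFCSD arrays lay close together and just under the lowest HFCD array, and HFCD array 2 was the highest. The difference was -1.51 (SE 0.49), or -1.07 without HFCD array 2, and within slides it was -1.50, -0.82 and -2.92. The control arrays lay between 5.60 and 7.54, a range that held all HFCSD arrays and lay under all HFCD arrays. In whole blood CCL8 read 5.16, 6.20 and 6.17 on HFCD and 4.41, 5.45 and 4.98 on HFCSD arrays, a difference of -0.90.

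IL27, here the p28 subunit of a cytokine made by activated myeloid cells, read 5.85, 6.40, 6.44 and 5.69 on HFCD and 3.57, 5.52, 5.11 and 5.24 on HFCSD arrays. HFCSD array 1 was the lowest by far, and the other 3 lay just under the HFCD range. The difference was -1.24 (SE 0.39), and it was -0.81 without HFCSD array 1 and -0.47 with the offset correction. The control arrays, at 5.77, 4.86, 5.56 and 5.23, reached into both ranges. In whole blood IL27 read 4.00, 4.19 and 3.70 on HFCD and 1.53, 3.51 and 3.0 on HFCSD arrays, none of the latter well above background.

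CDC20, which drives cells out of mitosis, was lower on both of its probes. The brighter CDC20 probe read 7.67, 7.92, 8.32 and 8.0 against 6.97, 7.45, 7.57 and 6.90, and the dimmer read 5.37, 5.65, 6.13 and 5.72 against 4.24, 5.17, 5.25 and 4.64. On both probes the highest HFCSD array, array 3, stayed just under the lowest HFCD array, array 1. The differences were -0.75 (SE 0.26) and -0.89 (SE 0.29), and the slide values of the brighter probe were -0.87, -0.27 and -0.98. Control arrays of the brighter probe spanned both diets, at 6.99, 7.30, 7.72 and 8.14. The other 5 lower probes were RPP14 at -0.55, the chemokine-binding receptor CCRL2 at -0.46, ACBD3 at -0.45, TOR1A at -0.44 and TFIP11 at -0.34. With the offset correction the dimmer CDC20 probe was -0.32 and RPP14 -0.13, and TOR1A was -0.29 without HFCSD array 1.

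**Figure D1:**
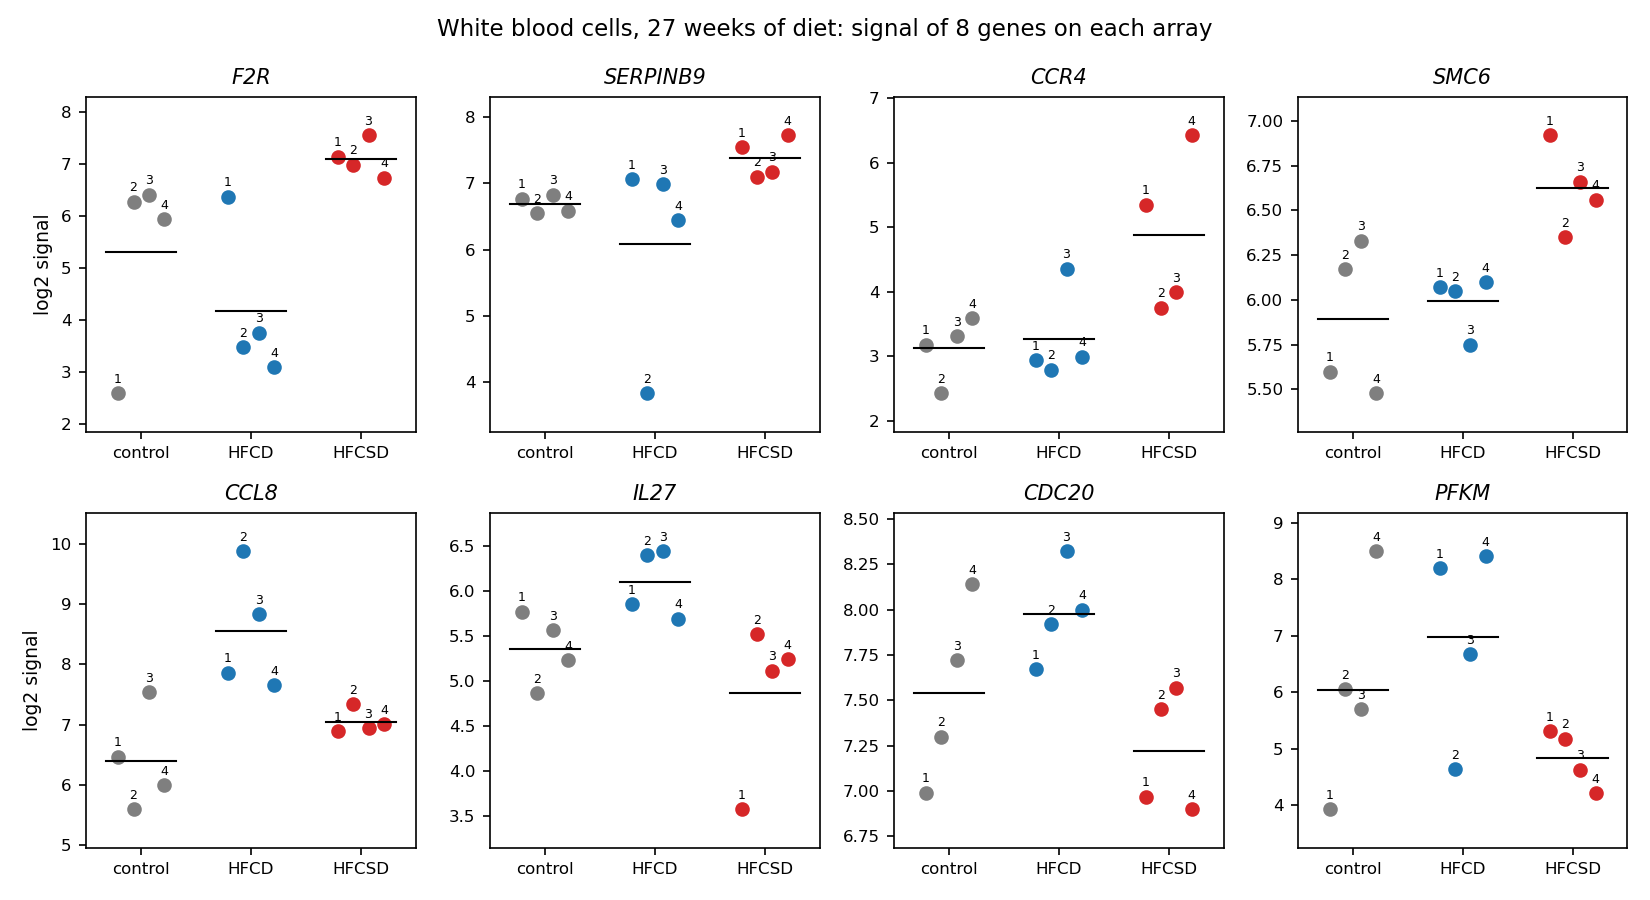
Log2 signal (vertical axis) of 8 genes on each white blood cell array of 27 weeks, by diet (horizontal axis), with array numbers beside the points and the group mean as a line. For F2R the HFCSD arrays sit between 6.73 and 7.55 and 3 of the 4 HFCD arrays between 3.1 and 3.76, while for CCR4 and PFKM the diets overlap.

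CCR4 and PFKM had wide differences with overlapping groups, and both were taken as leading members of their gene lists. CCR4, a homing receptor of helper T cells, read 2.94, 2.79, 4.36 and 2.99 on HFCD and 5.35, 3.75, 3.99 and 6.43 on HFCSD arrays. HFCSD arrays 1 and 4 were high, and HFCD array 3 lay above the other 2 HFCSD arrays. The difference was 1.61 (SE 0.55), 0.34 with the offset background correction, and within slides it was -0.61, 1.03 and 3.1. Only 1 HFCD array was well above background for CCR4, so the size of that difference cannot be read with precision. CCR4 was among 8 higher probes of its list, chemokine receptors and adhesion, while 17 of the 25 probes were lower. The median of that list was -0.23, and it lay between -0.31 and -0.08 over the other settings. PFKM, the muscle-type phosphofructokinase of glycolysis, read 8.19, 4.64, 6.67 and 8.41 against 5.31, 5.18, 4.63 and 4.21. HFCD arrays 1, 3 and 4 were high and array 2 sat within the HFCSD range. The difference was -2.14 (SE 0.93), or -1.22 with the offset correction, -2.92 without HFCD array 2, and -1.49, -3.67 and 0.12 within slides. Control arrays of PFKM ranged from 3.93 to 8.49. Applied here between the diets, the study's criterion took neither CCR4 nor PFKM. The genes with a name that it took in this comparison were F2R, CCL8, IL27 and AIF1, which are not results of the study. AIF1, a macrophage activation gene, falls outside the rule used here and was chosen after its values were seen. AIF1 read 11.12, 11.22, 10.68 and 10.72 on HFCD and 8.85, 10.91, 9.88 and 9.12 on HFCSD arrays. HFCSD array 2 lay within the HFCD range and the other 3 below it, for a difference of -1.24.

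The gene lists below are read against all probes tested, of which 9509 of 18798 were lower in HFCSD, with a median of -0.00. Among the probes with a gene name, from which the lists are drawn, 1355 of 2390 were lower, with a median of -0.04. Many genes have several probes, so counts of probes are not counts of separate genes. The lists were chosen with earlier results of these data known. Of the 17 genes on the list of sucrose and fructose handling 8 had a named probe and 3 were tested, all 3 lower. Their median difference was -0.12 against -0.00 over all probes tested. It was -0.00 without HFCSD array 1 or 4, -0.04 without HFCD array 1 and -0.05 with slide as a block. Without HFCD array 2 it was -0.19 and without HFCSD array 2 it was -0.21, and it turned to 0.05 without HFCD array 4. SLC2A5, the fructose transporter, read 7.34, 6.85, 7.51 and 7.57 on HFCD and 7.18, 7.41, 7.52 and 7.03 on HFCSD arrays. The groups overlapped, with a difference of -0.04 (SE 0.32). The SLC2A5 difference kept its sign in 20 of 24 other settings, some of which leave a difference as it was, and ranged from -0.19 to 0.11. FBP1 differed by -0.12, which turned to 0.04 without HFCD array 2 and 0.03 without HFCSD array 1. AKR1B1, which makes sorbitol from glucose, differed by -0.16, which was -0.43 without HFCD array 2 and turned to 0.05 without HFCD array 4. Ketohexokinase (KHK), which carries out the first step of fructose breakdown, and G6PC, PCK2 and SLC2A2 were not well above background on all arrays of either diet, so nothing can be read from them here.

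Genes of the carbohydrate response and fat synthesis had a median difference of -0.04 over 12 tested probes, 5 higher and 7 lower, which was from -0.15 to 0.07 over the other settings and turned positive with slide as a block and without HFCD array 1 or HFCSD array 1. Of the 12, 0 were under 0.05 unadjusted. TXNIP, which glucose induces in many cells, read 11.97, 12.51, 12.35 and 11.42 against 10.69, 11.26, 12.21 and 11.69. HFCSD arrays 1 and 2 were low and arrays 3 and 4 fell in the HFCD range, for a difference of -0.60 (SE 0.37), or -0.34 without HFCSD array 1. FASN, the fatty acid synthase, read 9.33, 9.84, 8.85 and 9.07 against 10.20, 9.23, 9.42 and 9.78 on its brightest probe. That was a difference of 0.39 with overlap, or 0.21 without HFCSD array 1, and a dimmer FASN probe differed by 0.07. SCD, the fatty acid desaturase, differed by 0.54 (SE 0.29) on its brightest probe, from 6.36, 6.58, 6.29 and 6.22 to 7.09, 6.89, 7.04 and 6.58. Its lowest HFCSD array equalled the highest HFCD array at 2 decimals, and with the offset correction this probe differed by 0.32. A dimmer SCD probe differed by -0.10 to 0.30 over the other settings. Glycolysis genes had a median of -0.22 over 11 probes, 8 of them lower and 1, PFKM, lower at 0.05 unadjusted (0.926% of all probes tested), and a median of -0.06 with slide as a block, -0.12 with the offset correction and -0.33 to -0.08 with single arrays left out.

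ABCA1 and SQLE each had near levels on the 2 diets, apart from control. ABCA1 read 12.25, 12.66, 12.57 and 12.46 on HFCD, 12.79, 12.28, 12.64 and 12.70 on HFCSD, and 9.75, 10.03, 10.25 and 10.24 on control arrays. Both diets lay far above every control array and overlapped each other, with a difference between them of 0.12 (SE 0.18). SQLE, an enzyme of cholesterol synthesis, read 6.12, 6.33, 5.94 and 5.76 on HFCD, 5.63, 6.25, 5.95 and 5.76 on HFCSD, and 7.57, 7.78, 7.63 and 7.09 on control arrays. Again the diets overlapped, with a difference of -0.14 (SE 0.21), and every control array was higher. Both diets are set here against the same control arrays. Over the lists, the median difference was 0.03 for 11 probes of liver X receptor targets, -0.12 for 8 probes of sterol synthesis and 0.08 for 13 probes of sterol sensing and LDL uptake. Without HFCD array 2 these medians were -0.42, -0.01 and -0.13. That of sterol synthesis was also -0.21 without HFCD array 1, -0.07 without HFCSD array 1 and -0.18 with slide as a block. That of sterol sensing was 0.13 to 0.16 without HFCD array 3 or 4 or HFCSD array 1 or 2, and 0.01 with the filter on every array. The liver X receptor median also turned negative with the offset correction (-0.05), with the filter on every array (-0.03) and without HFCD array 4 or HFCSD array 2 or 3. The first list's receptor gene NR1H3 was lower on all 3 of its probes, by -0.42, -0.40 and -0.41, with overlap on each, and by -0.11, -0.21 and -0.18 without HFCSD array 1.

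The cell cycle list was lower in HFCSD on most of its probes. Of its 13 tested probes, from 8 genes, 11 were lower in HFCSD. Of these, 7 were under 0.05 unadjusted, where 0.926% of all probes tested were lower at that level. The 7 include both CDC20 probes, chosen above by that same p. Probes of 1 gene are not separate observations, so that share is only a rough measure for them. The median difference was -0.48 against -0.00 over all probes. The 13 probes averaged 7.95, 8.17, 8.15 and 7.79 on HFCD and 7.28, 7.59, 7.85 and 7.54 on HFCSD arrays, with the highest HFCSD array inside the HFCD range. Control arrays, at 7.29, 7.49, 7.84 and 7.65, lay in the HFCSD range. TOP2A, the topoisomerase of dividing cells, read 8.78, 9.67, 8.66 and 8.17 against 7.37, 8.34, 8.54 and 7.95 on its brighter probe. Its groups overlapped, with HFCD array 2 the highest and HFCSD array 1 the lowest, and the difference was -0.77 (SE 0.33), or -0.48 without HFCD array 2. CCNB1, the mitotic cyclin, differed by -0.98 and -0.69 on its probes, and by -0.28 and -0.44 with the offset correction. The 2 probes on the other side were both of CCND2, which was lower at -0.48 on its remaining probe, so the probes of that gene disagreed. The count of 7 was 2 with only the 2 diets in the fit, with slide as a block, and without HFCD array 1, HFCSD array 1 or HFCSD array 4. It was 3 with all 45 arrays in the fit and without HFCD array 3 or control array 2, and 4 without HFCD array 2. The list's median was negative in all 24 other settings, between -0.54 and -0.28. Not all of these could move it. It stayed at -0.48 with looser filters, with the replicate block and with other control or whole blood arrays in the fit. Such settings leave the difference between the diets as it was.

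Interferon-induced genes were lower on most probes, by less without HFCD array 2. Of 38 probes, from 19 genes, 34 were lower, with a median of -0.38 and 0 under 0.05 unadjusted. The 38 probes averaged 9.91, 10.87, 10.31 and 10.27 on HFCD and 9.62, 10.10, 10.17 and 10.06 on HFCSD arrays, against 10.18, 9.04, 9.69 and 8.65 on control arrays. HFCD array 2 was the highest, and HFCD array 1 lay within the HFCSD range. Without HFCD array 2 the median was -0.17, with 30 of 38 lower, and it was -0.24 without HFCSD array 1 and -0.59 without HFCD array 1. CXCL10, an interferon-induced chemokine, read 6.07, 9.88, 6.97 and 7.37 against 4.88, 8.18, 6.13 and 6.58 on the dimmer of its 2 probes. HFCD array 2 was the highest and HFCSD array 2 the next, and the difference of -1.13 was -0.36 without HFCD array 2. RSAD2, an antiviral enzyme, read 8.98, 11.94, 11.27 and 11.43 against 10.08, 10.64, 10.08 and 10.47. Its 3 highest arrays were of HFCD and so was its lowest, and the difference was -0.59 (SE 0.58), or -0.24 without HFCD array 2 and -1.23 without HFCD array 1.

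All 14 probes of MHC class II were lower, with a median of -0.28, but they come from only 5 genes. They averaged 11.92, 12.20, 12.05 and 11.89 on HFCD and 11.18, 12.08, 11.85 and 11.87 on HFCSD arrays. Only HFCSD array 1 lay far from the rest, and without it the median was -0.11 with 11 of 14 lower. Without HFCD array 2 it was -0.17, and without HFCSD array 2 it was -0.43. MHC class I and peptide loading had 25 of 29 probes lower, from 10 genes tested, with a median of -0.12. That median was -0.03 without HFCSD array 1, -0.04 without HFCD array 3, -0.25 without HFCSD array 2, -0.31 without HFCD array 2, and -0.19 without HFCSD array 3 or with arrays scaled by their 75th percentile. Toll-like receptors and adaptors, with 14 genes tested, had 16 of 19 probes lower and a median of -0.34. It was -0.17 without HFCSD array 2, -0.20 without HFCSD array 1 or with the offset correction, and -0.57 without HFCSD array 3. Their means were 7.77, 7.92, 7.84 and 7.37 on HFCD and 6.92, 7.06, 7.85 and 7.72 on HFCSD arrays, so that HFCSD arrays 1 and 2 were low and arrays 3 and 4 were not. TLR4, the endotoxin receptor, showed this split on its brightest probe, at 9.18, 9.13, 9.18 and 8.34 against 7.28, 7.93, 9.15 and 8.97. Its difference of -0.63 was -0.28 without HFCSD array 1. Inflammatory cytokines and signalling had 21 of 25 probes lower with a median of -0.16, or -0.05 and 13 of 25 without HFCD array 2. That median was -0.10 and -0.07 without HFCSD arrays 1 and 2, -0.33 without HFCSD array 3, -0.37 without HFCD array 4 and -0.28 with slide as a block. On the immediate early and stress response list HFCD array 2 averaged 10.62, and HFCD arrays 1, 3 and 4 averaged 9.79, 9.70 and 9.04. This list had 6 of 8 probes lower and a median of -0.17, which became 0.05 without HFCD array 2. Over the other settings its median lay between -0.45 and 0.05.

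**Figure D2:**
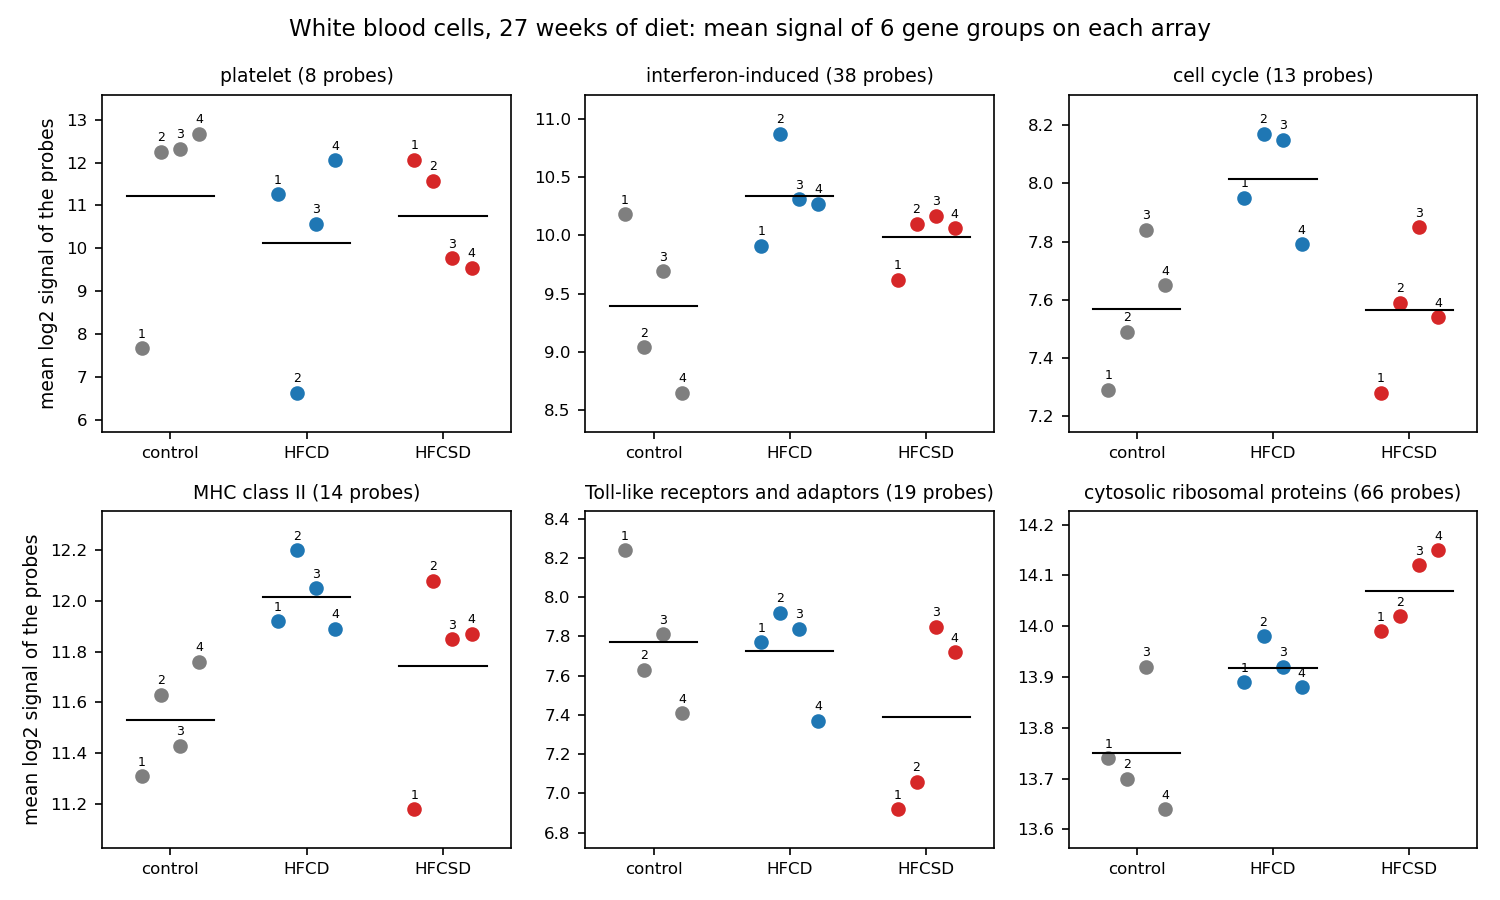
Mean log2 signal (vertical axis) of the tested probes of 6 gene groups on each white blood cell array of 27 weeks, by diet (horizontal axis), with array numbers beside the points and the group mean as a line. HFCD array 2 and control array 1 are low in platelet signal at 6.63 and 7.67, and HFCSD array 1 is low for MHC class II at 11.18.

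Markers of cell types are given beside these lists, apart from the short erythroid list and the short B and plasma cell list. Each list given had 0 probes past adjustment and at most 1 probe under 0.05 unadjusted. Monocyte markers were lower on 20 of 24 probes with a median of -0.22, and averaged 9.71, 9.65, 9.92 and 9.39 on HFCD and 9.0, 9.17, 9.91 and 9.70 on HFCSD arrays. The same HFCSD arrays 1 and 2 were low here, and the median was -0.07 without array 1 and -0.05 without array 2. It was -0.41 and -0.35 without HFCSD arrays 3 and 4, and -0.11 without HFCD array 3. SIGLEC1, another gene of that list, was not well above background on all arrays of a diet. The brightest monocyte marker, LYZ, ranged from 13.12 to 14.59 on HFCD and from 12.52 to 14.64 on HFCSD arrays, with HFCSD array 1 the lowest, and differed by -0.36. CCR2, which lets monocytes leave the marrow, differed by -0.51 (SE 0.21). Neutrophil markers were lower on 8 of 9 probes with a median of -0.27, and averaged 9.95, 10.18, 10.38 and 9.73 against 9.78, 9.47, 10.29 and 9.67. The neutrophil median was -0.06 without HFCSD array 2, -0.09 without HFCSD array 4, -0.12 without HFCD array 3, -0.17 with the offset correction and -0.45 without HFCSD array 3. CXCR1 and PR39 of that list were too dim to test. The brightest neutrophil probe, MMP9, read 14.51, 14.13, 14.26 and 13.72 against 14.18, 13.52, 12.78 and 13.40, with HFCSD array 1 inside the HFCD range and the others below it. Cytotoxic and NK cell markers were lower on 5 of 5 probes with a median of -0.29, and averaged 10.62, 11.09, 10.80 and 10.14 against 9.94, 10.73, 10.46 and 10.29. HFCD array 4 and HFCSD array 1 were the lowest of these. Without HFCD array 2 the cytotoxic median was -0.16 with 4 of 5 lower, and it was -0.46 without HFCD array 4, -0.45 without HFCSD array 2 and -0.19 with the offset correction. Lower, too, were eosinophil, basophil and mast cell markers on 5 of 6 probes with a median of -0.25. T cell markers were higher on 9 of 14 probes with a median of 0.06, which was 0.14 without HFCD array 2 and turned to -0.05 with slide as a block and -0.02 without HFCD array 4. T cell markers averaged 8.51, 8.83, 8.34 and 8.43 against 8.59, 8.68, 8.40 and 8.61, with overlap. The part of cell composition in the cell cycle, interferon, antigen presentation and Toll-like receptor results was not tested.

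The platelet list turned on HFCD array 2. All 8 platelet probes were higher in HFCSD with a median of 0.60, but without that array 7 of 8 were lower and the median was -0.63. It was 0.11 and 0.27 without HFCSD arrays 1 and 2, 0.96 with slide as a block, and up to 1.27 without HFCD array 4. ITGB3, a subunit of the platelet fibrinogen receptor, read 12.35, 7.25, 11.82 and 13.18 against 13.57, 12.83, 10.88 and 10.31, and its difference of 0.75 became -0.56. Smooth muscle and vessel wall genes had a median of 0.15 that became -0.30, and was -0.00 without HFCSD array 1 and -0.01 with the offset correction. Their member CNN1 read 7.03, 1.49, 6.61 and 8.38 against 6.96, 6.91, 5.86 and 4.80, low on the array with the least platelet signal. PFKFB1, a regulator of glycolysis that the study's tables name, was not tested, and read 4.97, 1.47, 4.62 and 5.59 against 5.50, 5.05, 3.49 and 3.40, again lowest on HFCD array 2. The part of platelet RNA in CNN1 and PFKFB1 was not tested.

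The list of cytosolic ribosomal proteins was higher in HFCSD on most probes. Of 66 probes, from 32 genes, 52 were higher, with a median of 0.12 and 0 under 0.05 unadjusted. The probes averaged 13.89, 13.98, 13.92 and 13.88 on HFCD and 13.99, 14.02, 14.12 and 14.15 on HFCSD arrays, and 13.74, 13.70, 13.92 and 13.64 on control arrays. All 4 HFCSD means lay above the HFCD means, though HFCD array 2 and HFCSD array 1 nearly met. The median was 0.17 without HFCD array 2 and 0.05 when arrays were scaled by their 75th percentile. Respiratory chain and ATP synthase genes had a median of 0.02 over 31 probes and proteasome genes 0.03 over 12, which became -0.03 and -0.02 with arrays scaled by their 75th percentile. The proteasome median was also negative with slide as a block and without HFCSD array 2 or 4. Without HFCD array 2 the respiratory chain and proteasome medians were both 0.08.

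**Figure D3:**
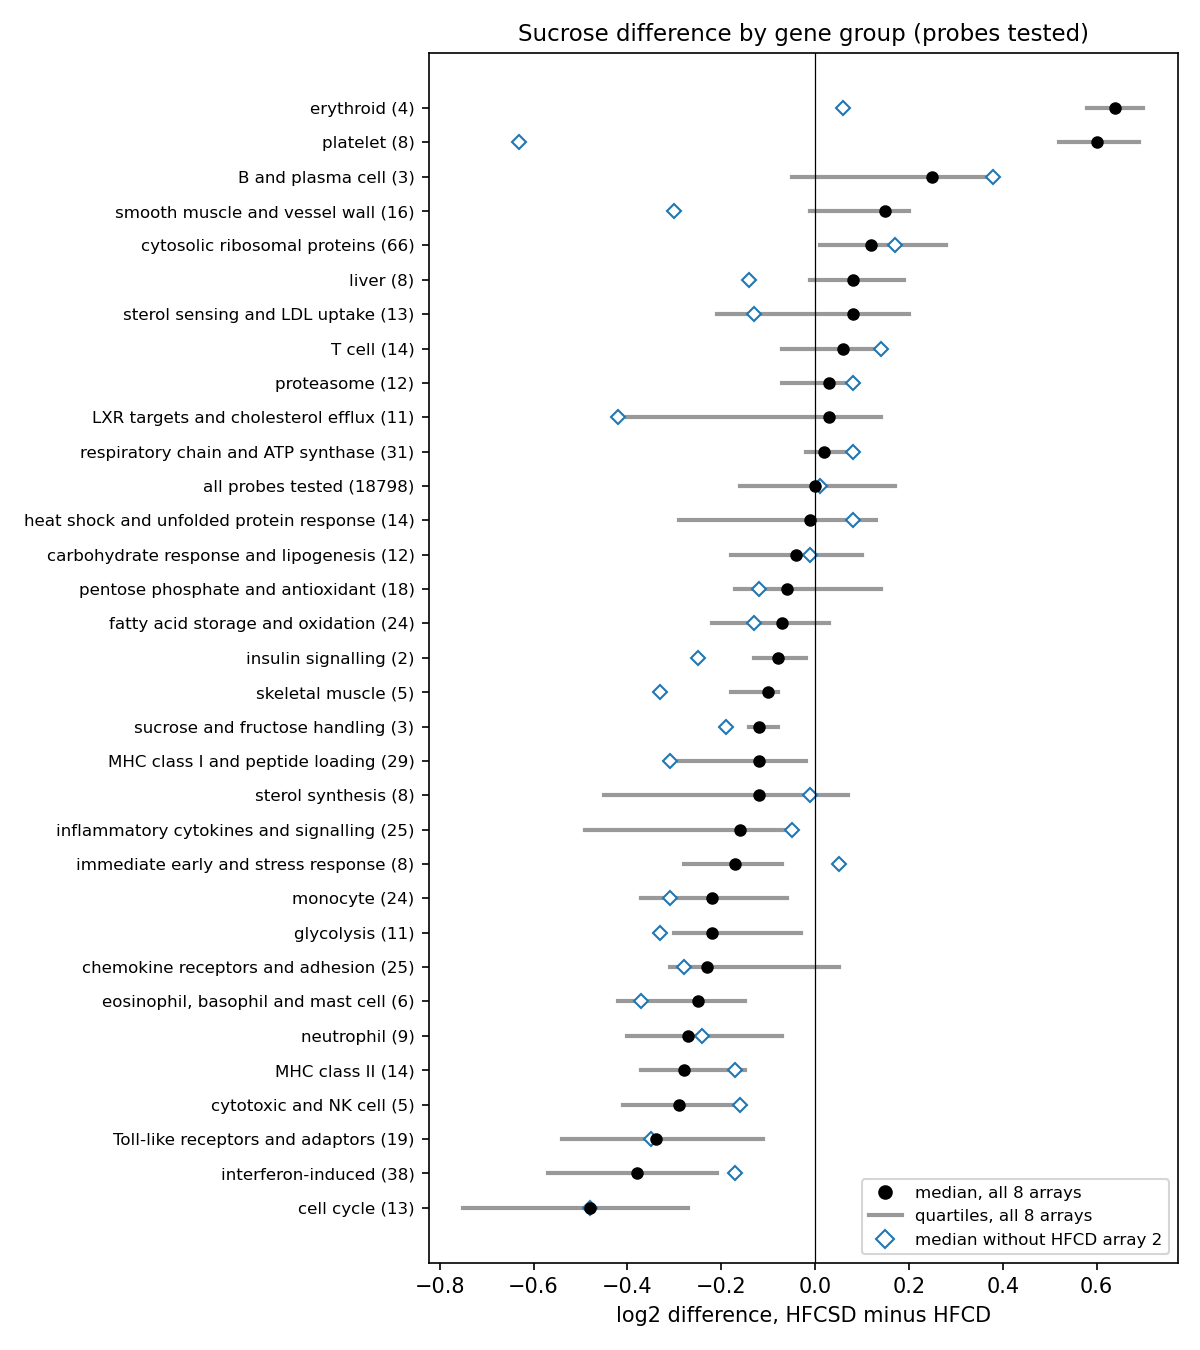
Log2 difference HFCSD minus HFCD (horizontal axis) for each gene group (vertical axis, with the number of probes tested): median and quartiles over its probes with all 8 arrays, and median without HFCD array 2. The cell cycle median is -0.48 with and without that array, while the platelet median goes from 0.60 to -0.63.

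The difference between HFCSD and HFCD in white blood cells was set against that in whole blood of 27 weeks. A limma test of the difference between these differences, over 20447 probes, put 6 (0.0293%) past adjustment and 1514 (7.4%) under 0.05 unadjusted. The call ends in other settings: the count is 0 with slide or replicate number as a block, with all 45 arrays in the fit, with 75th percentile scaling, with the offset correction, and when a probe had to be well above background on every array compared. None of the 6 had a gene name, and in white blood cells their diets overlapped. Of the 6, 2 were not well above background on any white blood cell array of either diet. The count was 0 to 33 when single arrays were left out, 0 without whole blood HFCD array 1 or white blood cell HFCSD array 4, 15 without whole blood HFCD array 2 and 33 without whole blood HFCSD array 3. It was 1 without array 3 of HFCD in either sample type, and 3 without whole blood HFCSD array 1 or white blood cell HFCD array 2 or HFCSD arrays 1 or 3. CCL8 gave -0.61 for white blood cells minus whole blood, with an adjusted p of 0.845.

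Of the probes without a gene name that met the same rule, the 2 with the largest difference in each direction are given. A_72_P296814 read 5.29, 5.48, 4.89 and 5.04 on HFCD and 2.85, 3.89, 3.32 and 3.66 on HFCSD arrays. It had the smallest unadjusted p of all, its groups were far apart, and it was well above background on all HFCD arrays and 1 HFCSD array, so the size of its difference cannot be read with precision. The difference was -1.74 (SE 0.32), or -0.50 with the offset correction, with slide values of -0.99, -1.84 and -2.23, and in whole blood it read 4.84, 3.77 and 5.03 against 1.46, 1.59 and 1.48. A_72_P418719 read 3.71, 4.82, 4.07 and 4.13 against 1.80, 2.93, 2.91 and 3.15, with no HFCSD array well above background. Where a diet has no such array, a fold is given as a lower bound. For it the arrays of that diet are set no lower than the level at which spots begin to be called well above background. By this bound A_72_P418719 was at least 1.82-fold lower. On the other side, A_72_P055746 was at least 1.16-fold and A_72_P391288 at least 1.67-fold higher in HFCSD, each with no HFCD array well above background. These bounds were taken without the offset correction and are not bounds for it. With that correction the fitted differences were -0.24 for A_72_P418719, 0.26 for A_72_P055746 and 0.32 for A_72_P391288, sizes that cannot be read with precision.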

How the data were processed

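The deposited files hold, per the file headers, the intensity of each spot as processed by Agilent Feature Extraction (background subtracted, 1 colour). The headers give version 10.5.1.1 and the labels 9.5.3.1. The deposited series table holds intensity quantile normalized by the authors, with medians from 0.0998 to 0.101 and a 75th percentile of 0.999 to 1.00 on each array. Control spots and outlier spots were left out, signal was log2 transformed, quantile normalized over 45 arrays, and averaged per probe. Names came from RefSeq accessions (1999 probes) and from descriptions, entry names and gene names in the files, 4024 of 43603 probes in all.

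HFCSD was compared with HFCD by limma 3.58.1 in R 4.3.3, two-sided, on 12 white blood cell arrays (4 control arrays share the estimate of spread), with Benjamini-Hochberg adjustment at 0.05. White blood cells minus whole blood used 22 arrays. Exact permutation tests used 70 splits. The fit was tested on simulated data. Genes named were probes past adjustment (0 between the diets), by direction up to 12 named probes with unadjusted p under 0.05 and no overlap, up to 2 unnamed ones, the 3 largest members of each gene list (all members for sugar, fat and sterol lists), and genes of the study's tables for white blood cells. Members and lists were chosen with earlier results of these data known. Alternatives covered scaling, background correction, the series table, filters, blocks and each array left out. Tables and figures used Python 3.11.15, numpy 2.4.6, pandas 2.3.3 and matplotlib 3.10.9.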

Additional observations from a re-analysis of the deposited data

Results flagged for a closer look

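For 161 probes the 4 values of each diet were searched for 1 array far from the other 3, as the gap to the nearest value over the range of the 4. Chance flags about 1 in 20 groups, and 23 of 322 were marked. HFCSD array 1 was the one apart in 9 of the 23, HFCD array 2 in 5, HFCD array 4 in 5, HFCD array 3 in 3 and HFCSD array 3 in 1.

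HFCSD array 1 lay apart for MYD88 (ratio 0.949), PSMC5 (0.958), CYP51 (0.854), CD1D on one probe (0.838), SREBF1 on one probe (0.859), COX7A1 (0.889), RXRA (0.906) and 2 unnamed probes (0.907 and 0.837). It was the lowest array for the genes other than COX7A1 and the highest for COX7A1 and the unnamed probes. MYD88, the adaptor of most Toll-like receptors, read 3.95 there and 5.09 to 5.15 on the other HFCSD arrays.

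HFCD array 2 lay apart for FAU (0.932), OAS2 (0.883), CD1D on another probe (0.956), FBP1 (0.834) and SREBF1 on another probe (0.862). FAU, a ribosomal protein precursor, read 12.51 there and 14.51 to 14.66 on the other HFCD arrays. OAS2 read 2.01 there on this probe and 7.97 to 8.76 on the others, while the mean of the interferon-induced probes was highest on that array.

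HFCD array 4 lay apart for TLR4 (0.943), SCD on a dim probe (0.846), INSIG1 (0.845), COX7C (0.832) and an unnamed probe (0.840). HFCD array 3 lay apart for TAP1 (0.851), CCR4 (0.870) and SMC6 (0.839). HFCSD array 3 lay apart for CD8B (0.863).

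In a limma test, the difference between diets in white blood cells was set against that in whole blood, and 6 unnamed probes passed adjustment. The count is 0 with slide or replicate number as a block, and 0 when a probe had to be well above background on every array compared. White blood cells minus whole blood was 3.21, 2.24, 2.23, 2.14, 1.86 and -3.01 (log2), with adjusted p from 0.0178 to 0.0385. In whole blood the first read 4.52, 4.81 and 3.93 on HFCD and 1.53, 1.45 and 1.42 on HFCSD arrays, and the last 2.41, 2.90 and 1.96 against 6.27, 5.21 and 5.02. Neither was well above background on any white blood cell array of these diets, so for these 2 whole blood signal is set against values at the floor, and no difference in white blood cells can be read.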

How the results depend on the processing

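Between the diets limma put 0 probes past adjustment (408 unadjusted, and 0 by the methods' t-test with adjustment) in every setting but 2: with the weaker presence flag and with no filter it was 1, an unnamed probe read near background. The count of 408 was 747 with the weaker flag, 1169 with no filter, 894 without HFCD array 2 and control array 1 together (chosen after seeing the data), and 148 to 1022 with single arrays left out. The criterion's 11 higher and 11 lower were 1 and 3 with normexp background correction, 57 and 51 with the weaker flag, 64 and 58 with no filter, 3 and 5 when every array had to be well above background, 50 and 18 without the 2 arrays, and 0 and 0 with adjustment. The higher count was also 17 with replicate number as a block and 94 with all 45 arrays in 1 fit, and the lower count 6 with slide as a block. With single arrays left out they were 7 to 135 and 5 to 26.

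White blood cells minus whole blood, at 6 probes, gave 0 with 75th percentile scaling, normexp, the filter on every array, the replicate block, the slide block and all 45 arrays, 3 with only the 2 diets, 17 with no filter, 2 without the 2 arrays, and 0 to 33 with single arrays left out. The cause of these changes was not tested, other than that the filters change how many probes are tested.

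The similarity of 0.0028 ranged from 0.000189 to 0.00684, and the 2.47 points of spots well above background from 1.90 to 3.12, with single arrays left out. Arrays with the same number were correlated at 0.06, -0.15, 0.32 and -0.31 between the diets (pairing by number, a block). Scan day as a block was not run, since all white blood cell arrays were scanned on 1 day.

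Of 161 probes named, 119 kept their sign in every setting run for them, 23 or 24 per probe. Others changed sign, such as PF4 and ITGB3 without HFCD array 2. Settings that changed only the filter, the replicate block or the control or whole blood arrays in the fit could not change a sign. None of the 161 probes was past adjustment, so no call could reverse. Of 3841 values, 18 moved by more than the pooled SD of the arrays within a diet, a wide bar where 1 array stands apart, all with normexp. Signal near background limits dim probes, and 4 arrays per diet limit all.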
